A study of Mus musculus with 12 samples.

Results

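Histone genes were followed in Ba/F3, a mouse line of pro-B cells that normally needs interleukin-3 (IL-3), in a study of the transcription factor ETV6. The histone set was every protein-coding gene named H1f, H2ac, H2bc, H3c or H4c followed by a number, which gave 69 of the 56748 genes in the deposited table. It holds 11 linker histone genes (H1), 17 H2A, 17 H2B, 12 H3 and 12 H4 genes. Of these, 54 lie on chromosome 13, 10 on chromosome 3, 2 each on chromosomes 6 and 15, and 1 on chromosome 11.

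All 12 libraries came from Ba/F3 cells carrying NRAS G12D that were sorted into medium without IL-3 and harvested on day 3. There were 4 groups of 3 libraries, which differed in what the cells expressed: ZsGreen alone as the control, wild-type ETV6 (ETV6 WT), ETV6 with P214L, or ETV6 with both I209S and P214L (I209S P214L). The series' design text holds that P214L creates a nuclear export sequence and that I209S breaks it, so one question was whether the double mutant resembled wild-type ETV6. Whether the 3 libraries of each group came from separate cultures is not in the labels, so the p-values measure only the spread between these libraries, which may be technical.

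Core histones (H2A, H2B, H3 and H4) form the spool that DNA is wound on, and H1 linker histones bind where the DNA enters and leaves it. Most of these genes are replication-dependent: they are transcribed in S phase and their mRNAs end in a conserved stem-loop bound by SLBP instead of a poly-A tail. H1f0 is different, being a linker histone with a polyadenylated mRNA that is made outside S phase and is known from cells that have stopped dividing. The RNA was captured here on poly-T beads, so a histone level in these libraries is that of captured, mostly tailed molecules and not of all histone mRNA.

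The annotated 3′ ends of the members show both kinds of ending. For each member the protein-coding GENCODE M21 transcript with the longest 3′ UTR was taken, and other transcripts of the same gene may end elsewhere. In the transcripts taken, 42 of the 69 members hold stem-loop letters, in 8 spellings, of which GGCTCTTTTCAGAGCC was the most common with 23 members. The following 30-base windows show the stem-loop in capitals for 2 members whose annotated transcript runs on beyond it (H1f2 and H4c9) and for 1 whose annotated transcript ends soon after it (H2bc7).
H1f2: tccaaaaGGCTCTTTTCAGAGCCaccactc
H4c9: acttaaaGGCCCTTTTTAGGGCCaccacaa
H2bc7: acccaaaGGCTCTTTTCAGAGCCacctacc
A poly-A signal (AATAAA or ATTAAA) lay in the last 50 bases of the annotated transcript of 18 members. Of the 5 members with the smallest adjusted p for ETV6 WT against ZsGreen, H2bc4 had no such signal in those 50 bases. The next windows, with the signal in capitals, come from the other 4. Of these, 2 (H1f2 and H4c9) therefore carry both a stem-loop and a poly-A signal.
H1f0: aaactttaaAATAAAactggaaag
H1f2: tatgcttctAATAAAaagcgttta
H2bc21: attattattAATAAAgttaccgat
H4c9: tctgtttacATTAAAagtattcta
A letter match is a description of the annotation and says nothing of which end these cells used.

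By the annotated end of the transcript taken, the members fell into 4 classes, which were drawn up after the values had been seen. Taking the longest 3′ UTR favours the classes with long ends. In 20 members the transcript ran over 100 bases past the stem-loop, in 22 it ended within 100 bases after it, in 12 it had a longer 3′ UTR without the stem-loop letters, and in 15 it ended within 30 bases of the stop codon.

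The libraries held 14301683 to 18607595 counts. The share of counts on 18S ribosomal RNA, which has no poly-A tail, was 3.85% ± 0.987 (SD, n = 3) in ZsGreen, 2.93% ± 1.17 in ETV6 WT, 4.89% ± 1.01 in P214L and 3.31% ± 1.74 in I209S P214L. It was lowest in ETV6 WT library 1 (1.58%) and I209S P214L library 1 (1.35%), 2 libraries whose deviations from their group means were correlated (r = 0.53 across genes, which are not independent). Of the pro-B markers, Igll1, Rag1 and Il7r had no count, and the list together reached 6.69 to 16.1 CPM (counts scaled to a common library size). Of 6 blood cell genes, Cd34 had no count, Kit had 0 to 3 counts a library, and Ptprc, Spi1, Il3ra and Csf2rb were tested. The 6 summed to 868 to 901 CPM in ZsGreen, 1359 to 1474 in P214L, 2911 to 3255 in ETV6 WT and 3094 to 3363 in I209S P214L, the 2 groups in which summed histone transcripts were also highest. Against ZsGreen all 4 tested were called higher with ETV6 WT and 3 (all but Il3ra) with each of the others, led by Csf2rb, a chain of the IL-3 receptor, at 5.91-fold with ETV6 WT, and the part of this in the histone results was not tested. Summed T cell, fibroblast and epithelial markers stayed at or below 1.12 CPM. Pecam1, counted here as an endothelial marker, brought that list to 82.0 to 101 CPM, with similar ranges in all 4 groups. These are bulk RNA samples, in which fewer cells of a type and less RNA per cell cannot be told apart.

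Of the 69 members, 47 had enough counts to be tested, 12 fell below the low-count filter and 10 had no count in any library. Only 12 members averaged at least 5 CPM. Members were tested with edgeR's quasi-likelihood test over all 14794 genes that passed the filter, and a gene was called higher or lower when its Benjamini-Hochberg adjusted p was under 0.05. Among the members without a count were the testis linker histone genes H1f7 and H1f9, the testis core genes H2ac1 and H2bc1, and H1f10, H2ac18, H2ac19, H2bc18, H3c13 and H3c14. The table's gene spans of H2ac18, H2ac19 and H2bc18 overlap long noncoding RNA genes that did have counts, 537 on Gm20633, 1212 on Gm20632 and 685 on Gm42743. Whether library strand was used in counting is not given in the sources used here, so reads of such pairs cannot be told apart. The 12 members below the filter had 10 to 75 counts over all libraries together and included the testis gene H1f6 and the oocyte gene H1f8; the others were H2ac11, H2ac21, H2ac22, H2ac24, H2bc3, H2bc11, H2bc14, H2bc24, H4c2 and H4c6.

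Histone transcripts in total were higher with ETV6 WT and with I209S P214L than with ZsGreen or P214L. Summed over the 69 members the level was 836 ± 19.3 CPM in ZsGreen, 846 ± 65.2 in P214L, 1286 ± 35.5 in ETV6 WT and 1522 ± 72.9 in I209S P214L (mean ± SD, n = 3 each). ETV6 WT and I209S P214L libraries, at 1262 to 1568 CPM, all lay above the ZsGreen and P214L libraries, at 771 to 892 CPM. The linker genes H1f0 and H1f2 alone made up 76.4% to 83.8% of the histone counts of each library.

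The families differed. Summed H1 went from 696 ± 23.1 CPM in ZsGreen and 716 ± 64.1 in P214L to 1091 ± 41.6 in ETV6 WT and 1272 ± 48.9 in I209S P214L. Summed H2B followed the same order, with 66.6 ± 3.04, 66.3 ± 4.97, 113 ± 3.65 and 144 ± 11.7 CPM. Summed H4 did so too, with 24.6 ± 3.22, 24.6 ± 0.179, 44.3 ± 2.88 and 54.4 ± 2.41 CPM. In these 3 families every ETV6 WT and I209S P214L library exceeded every ZsGreen and P214L library. Summed H2A was 18.2 ± 3.03, 16.4 ± 1.54, 16.2 ± 6.35 and 21.3 ± 5.05 CPM in the same order of groups, and its groups overlapped. Summed H3 was 30.7 ± 6.88 CPM in ZsGreen, 22.5 ± 4.54 in P214L, 20.96 ± 3.82 in ETV6 WT and 30.03 ± 9.33 in I209S P214L, with the lowest mean in ETV6 WT and with overlapping ranges. Without H1f0, H1f2, H2bc4, H2bc21 and H4c9, the other 64 members summed to 136 ± 18.1 CPM in ZsGreen, 114 ± 8.21 in P214L, 130 ± 16.1 in ETV6 WT and 171 ± 39.2 in I209S P214L, and the ZsGreen, ETV6 WT and I209S P214L ranges overlapped.

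**Figure D1:**
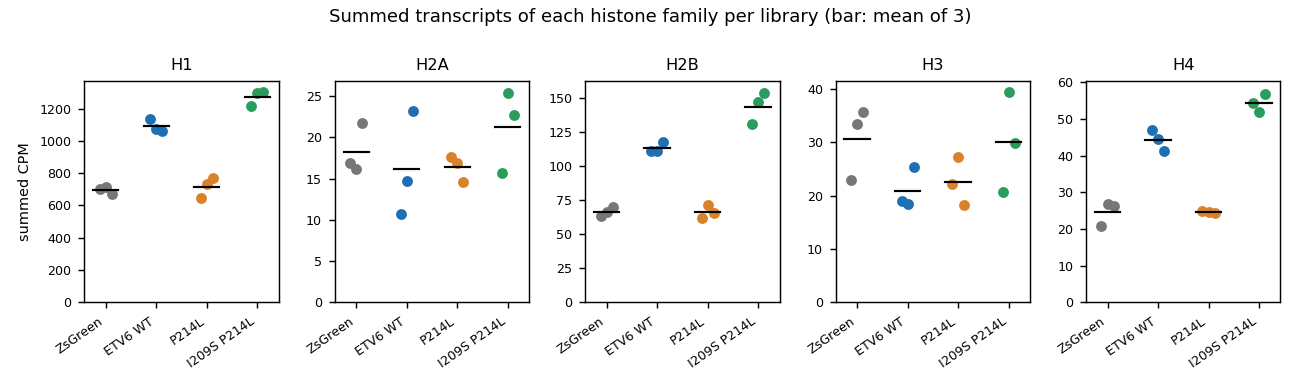
Summed CPM (vertical axis, from 0, separate scale in each panel) of the H1, H2A, H2B, H3 and H4 genes in each of the 12 libraries, by group; points are libraries and bars are means of 3. H1, H2B and H4 are higher in all ETV6 WT and I209S P214L libraries, whereas H2A and H3 overlap between groups.

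With ETV6 WT against ZsGreen, 9 of the 47 tested members were called higher, where 19.5% of all genes tested were, and 5 were called lower, where 18.2% were. For the members that is 19.1% and 10.6%, so the share of higher calls is that of the background, and their median log2 fold change was -0.38 against 0.03 for all genes tested. The higher calls were H1f0, H1f2, H2bc4, H2bc6, H2bc21, H3c15, H4c9, H4c14 and H4c17, and the lower ones H2ac15, H2ac20, H3c6, H3c10 and H3c11. With the 18S share as a covariate the median turned to 0.11, 10 members were called higher and 2 lower (H2ac15 and H3c10). By DESeq2 18 members were called, with H3c1, H3c3 and H4c11 added as lower and H2ac12 as higher. By limma-voom 13 were called. At an unadjusted p under 0.05 by edgeR there were 19 members, 11 higher and 8 lower. The share of all genes at an unadjusted p under 0.05 is not given here for any comparison. Counts of members at that threshold are therefore not read as particular to histone genes. Among the 12 members of at least 5 CPM 6 were called higher and 1 lower, and among the other 35 these numbers were 3 and 4. Shares over all genes of at least 5 CPM are not given here for any comparison. Counts among these 12 members are therefore not read as particular to histone genes.

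The double mutant was set against ZsGreen in the same way. In I209S P214L against ZsGreen 13 members were called higher, against 20.8% of all genes, and 2 lower, against 20.7%, which is 27.7% and 4.26% of the members, with a median of 0.53 for the members and 0.03 for all genes. The higher ones were H1f0, H1f2, H1f3, H2ac6, H2ac12, H2bc4, H2bc6, H2bc8, H2bc21, H2bc23, H3c4, H3c15 and H4c9, and the lower ones H2ac15 and H2bc7. Of the 12 members of at least 5 CPM, 10 were higher and none lower, while the shares just given are over all genes tested, whatever their level. This comparison and that of ETV6 WT share the ZsGreen libraries.

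P214L alone against ZsGreen gave no call of a member in either direction, where 3.47% of all genes tested were called higher and 1.61% lower. At shares this small few calls would fall among 47 members, so their absence is not read as particular to histone genes. The log2 fold changes of the members ran from -1.87 to 1.77. At an unadjusted p under 0.05 there were 7 members, 3 higher and 4 lower, and limma-voom called none while DESeq2 called 1, H4c11, at a log2 fold change of -1.55 (adjusted p = 0.0428).

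Both comparisons against P214L had their called members mostly on the side of ETV6 WT and I209S P214L. In P214L against ETV6 WT 1 member (2.13%) was called higher and 9 (19.1%) lower, and 14.6% of all genes were called in each direction. The higher one was H2ac20, and the lower ones were H1f0, H1f2, H2ac6, H2bc4, H2bc6, H2bc8, H2bc21, H2bc23 and H4c9. In I209S P214L against P214L 12 members (25.5%) were called higher, where 15.9% of all genes were, and none lower, where 17.1% were. By limma-voom 13 were higher and by DESeq2 12, none lower by either, and all 12 members at an unadjusted p under 0.05 were higher. The 12 were H1f0, H1f2, H1f3, H2ac6, H2bc4, H2bc6, H2bc8, H2bc21, H2bc23, H3c4, H4c1 and H4c9, with a median of 0.49 over the 47 members against 0.00 for all genes.

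The direct comparison of I209S P214L with ETV6 WT called no member, where 0.0135% of all genes were called higher and 0.0203% lower. The point estimates nevertheless leaned one way: 40 of the 47 tested members were higher in I209S P214L and 7 lower, with a median of 0.40, while over all genes 6994 were higher and 7793 lower, with a median of -0.01. All 12 members of at least 5 CPM had a higher point estimate. At an unadjusted p under 0.05 there were 7 members, all higher, and the share of all genes at that threshold is not given here. The smallest adjusted p by edgeR was 0.464, limma-voom called none, and DESeq2 called H1f2, at a log2 fold change of 0.43 (adjusted p = 0.0144).

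Among the linker histones, H1f0 and H1f2 had the highest levels per length. The deposited FPKM, which divides by gene length and library size, averaged 294 for H1f0 and 191 for H1f2 over the 12 libraries, ahead of H2bc8 at 38.8, H4c9 at 27.8, H2bc4 at 16.8 and H2bc21 at 13.6.

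H1f2 (ENSMUSG00000036181; mm39 chromosome 13, 23922791 to 23924350, plus strand) encodes a replication-dependent linker histone. The level of H1f2 was 167, 172 and 148 CPM in ZsGreen, 129, 157 and 174 in P214L, 425, 330.0 and 386 in ETV6 WT and 497, 515 and 509 in I209S P214L. All ETV6 WT and I209S P214L libraries lay above all ZsGreen and P214L libraries, and the I209S P214L libraries also lay above those of ETV6 WT. H1f2 was 2.34-fold higher in ETV6 WT than in ZsGreen (log2 1.23, SE 0.10, adjusted p = 3.38e-08 by edgeR). H1f2 was 3.30-fold higher in I209S P214L than in P214L (log2 1.72, SE 0.10, adjusted p = 5.47e-10 by edgeR). Against ETV6 WT the double mutant was 1.33-fold higher (log2 0.42, SE 0.10), which edgeR did not call (adjusted p = 0.464). It was called by DESeq2, as above, and by edgeR without the low-count filter (adjusted p = 0.000109).

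H1f0 (ENSMUSG00000096210; mm39 chromosome 15, 78912650 to 78914704, plus strand) had the most counts of all members. In ZsGreen H1f0 stood at 501, 515 and 481 CPM, in ETV6 WT at 686, 711 and 645, in P214L at 484, 546 and 565 and in I209S P214L at 687, 725 and 752. The change was smaller than that of H1f2, but again no ETV6 WT or I209S P214L library fell within the range of the ZsGreen and P214L libraries. H1f0 was 1.36-fold higher in ETV6 WT than in ZsGreen (log2 0.45, SE 0.07, adjusted p = 3.80e-05 by edgeR). H1f0 was 1.45-fold higher in I209S P214L than in ZsGreen (log2 0.53, SE 0.07, adjusted p = 4.71e-06 by edgeR). ETV6 WT and I209S P214L overlapped (log2 0.08, adjusted p = 1.00).

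H1f3, another replication-dependent linker histone gene, was called with the double mutant and not with ETV6 WT. For H1f3 the CPM values were 20.4, 19.1 and 20.5 for ZsGreen, 20.5, 20.6 and 20.95 for ETV6 WT, 15.9, 17.4 and 17.5 for P214L and 24.1, 32.1 and 32.4 for I209S P214L. The I209S P214L libraries lay above all 9 others, with library 1 the closest to them. H1f3 was 1.47-fold higher in I209S P214L than in ZsGreen (log2 0.56, SE 0.12, adjusted p = 0.00132 by edgeR). With ETV6 WT its log2 fold change against ZsGreen was 0.05 (adjusted p = 0.808). The double mutant exceeded ETV6 WT by 0.51 on the log2 scale with no overlap, which was not called (adjusted p = 0.464), so a difference between the 2 proteins is not shown.

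The other 3 tested linker genes were not called in any of the 6 comparisons. H1f4 measured 9.43, 7.39 and 11.5 CPM in ZsGreen and 11.4, 9.27 and 7.65 in P214L, and 4.15, 7.98 and 7.13 in ETV6 WT and 4.78, 12.9 and 6.997 in I209S P214L. Its reads could be split uncertainly with H2bc6, whose annotated span overlaps it on the same strand. H1f5 had 3.10, 1.67 and 6.43 CPM in the 3 ZsGreen libraries, 2.08, 1.77 and 2.07 in ETV6 WT, 2.43, 1.77 and 3.60 in P214L and 1.77, 5.09 and 3.01 in I209S P214L. The level of H1f1 was 1.07, 1.199 and 2.77 CPM in ZsGreen, 1.39, 1.95 and 1.31 in P214L, 0.549, 0.969 and 1.22 in ETV6 WT and 0.644, 5.02 and 1.78 in I209S P214L. The groups of all 3 overlapped between ZsGreen and each ETV6 group, and library 2 of I209S P214L was the highest of its group in each.

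**Figure D2:**
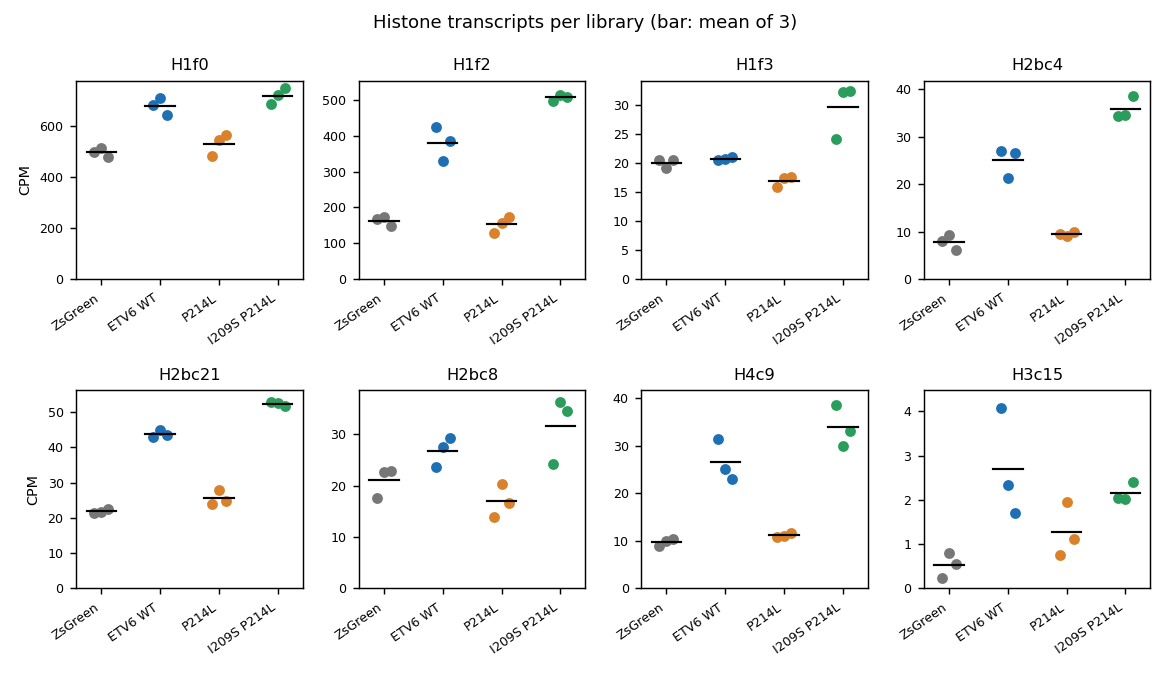
CPM (vertical axis, from 0, separate scale in each panel) in each library for 8 histone genes, with groups on the horizontal axis, 1 point per library and a bar at the mean of 3. For H1f0, H1f2, H2bc4, H2bc21 and H4c9 every ETV6 WT and I209S P214L library lies above every ZsGreen and P214L library.

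Among H2B genes, H2bc4, H2bc21 and H2bc6 were called higher with both ETV6 WT and I209S P214L. In ZsGreen H2bc4 stood at 8.07, 9.26 and 6.19 CPM, in ETV6 WT at 27.0, 21.3 and 26.6, in P214L at 9.43, 9.10 and 9.94 and in I209S P214L at 34.4, 34.6 and 38.5. The lowest library with ETV6 WT or I209S P214L was 2.14 times the highest ZsGreen or P214L library. H2bc4 was 3.19-fold higher in ETV6 WT than in ZsGreen (log2 1.67, SE 0.15, adjusted p = 8.62e-08 by edgeR). H2bc4 was 3.78-fold higher in I209S P214L than in P214L (log2 1.92, SE 0.15, adjusted p = 1.61e-08 by edgeR). For H2bc21 the CPM values were 21.3, 21.6 and 22.6 for ZsGreen, 43.1, 45.1 and 43.4 for ETV6 WT, 23.9, 28.0 and 24.8 for P214L and 53.0, 52.6 and 51.7 for I209S P214L. Within each group the H2bc21 libraries lay close together, and the 4 groups did not overlap. H2bc21 was 2.01-fold higher in ETV6 WT than in ZsGreen (log2 1.01, SE 0.09, adjusted p = 1.41e-07 by edgeR). P214L libraries also lay just above ZsGreen, at a log2 fold change of 0.23 that was not called (adjusted p = 0.198). H2bc4 (ENSMUSG00000018102) lies on mm39 chromosome 13, 23868182 to 23876891, and H2bc21 (ENSMUSG00000068854) on chromosome 3, 96128435 to 96131054, both on the plus strand.

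H2bc8 was called higher with the double mutant and not with ETV6 WT. H2bc8 measured 17.6, 22.7 and 22.8 CPM in ZsGreen and 13.9, 20.3 and 16.7 in P214L, and 23.6, 27.5 and 29.3 in ETV6 WT and 24.3, 36.3 and 34.6 in I209S P214L. ETV6 WT lay above ZsGreen without overlap, though the difference was not called (log2 0.35, adjusted p = 0.106); it was called with the 18S share as a covariate (0.00922) and with no low-count filter (0.0392). H2bc8 was 1.86-fold higher in I209S P214L than in P214L (log2 0.90, SE 0.17, adjusted p = 0.000415 by edgeR). The call of H2bc8 in I209S P214L against ZsGreen was lost without ZsGreen library 1 (adjusted p = 0.0507) or I209S P214L library 2 (0.0528), and that in P214L against ETV6 WT without P214L library 1 (0.0503). H2bc6 had 5.70, 2.46 and 4.63 CPM in the 3 ZsGreen libraries, 7.20, 6.84 and 8.30 in ETV6 WT, 4.57, 3.49 and 4.58 in P214L and 7.84, 9.48 and 10.2 in I209S P214L. ZsGreen and P214L were low and ETV6 WT and I209S P214L high, without overlap. Against ZsGreen, H2bc6 was 1.74-fold higher with ETV6 WT (adjusted p = 0.0231) and 2.14-fold higher with I209S P214L (adjusted p = 0.00257). The call of H2bc6 with ETV6 WT was lost without ZsGreen library 2 (adjusted p = 0.101) or ETV6 WT library 3 (0.0840), and the call in P214L against ETV6 WT without ETV6 WT library 3 (0.0882) or any P214L library (0.0516 to 0.115). Of the H2B genes that were lower, H2bc7 was called with the double mutant. The level of H2bc7 was 2.77, 0.933 and 1.44 CPM in ZsGreen, 0.832, 1.06 and 0.981 in P214L, 0.610, 1.03 and 1.38 in ETV6 WT and 0.537, 0.140 and 0.736 in I209S P214L. ZsGreen library 1 was the highest, and without it the call was lost (adjusted p = 0.152), as it was without I209S P214L library 2 (0.115) or 1 (0.0718) or ETV6 WT library 2 (0.0522). H2bc23 had 9 to 23 counts in the ZsGreen libraries and 22 to 72 in those of I209S P214L, and none of its 50-base stretches is unique among annotated transcripts. It was called higher in the double mutant than in ZsGreen (adjusted p = 0.0389) and in P214L (adjusted p = 0.00514), and both calls were lost without I209S P214L library 3 (0.316 and 0.0623). The first was also lost without ZsGreen library 2 (0.109) or 3 (0.0802) or ETV6 WT library 3 (0.0510), and its lower call in P214L against ETV6 WT was lost without any P214L library (0.0551 to 0.123) or ETV6 WT library 1 (0.109) or 3 (0.0895). H2bc13, whose point estimate fell most among the uncalled H2B genes with the double mutant, had 0.564, 0.799 and 1.26 CPM in ZsGreen, 0.366, 0.627 and 0.638 in ETV6 WT, 0.762, 0.827 and 0.327 in P214L and 0.376, 0 and 0.491 in I209S P214L (log2 -1.54, adjusted p = 0.171). Its library 2 of I209S P214L had no count.

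H4c9 (ENSMUSG00000060639; mm39 chromosome 13, 22224806 to 22225532, minus strand) had the most counts of the H4 genes. In ZsGreen H4c9 stood at 8.92, 9.86 and 10.3 CPM, in ETV6 WT at 31.4, 25.1 and 23.0, in P214L at 10.9, 11.05 and 11.7 and in I209S P214L at 38.7, 30.1 and 33.1. ETV6 WT and I209S P214L overlapped each other, and their lowest library was 1.97 times the highest of the other groups. H4c9 was 2.73-fold higher in ETV6 WT than in ZsGreen (log2 1.45, SE 0.14, adjusted p = 2.73e-07 by edgeR). H4c9 was 3.03-fold higher in I209S P214L than in P214L (log2 1.60, SE 0.14, adjusted p = 8.80e-08 by edgeR). The other H4 genes had fewer counts and were mostly not called. For H4c12 the CPM values were 1.52, 3.46 and 2.35 for ZsGreen, 4.52, 4.50 and 2.55 for ETV6 WT, 3.05, 1.83 and 3.20 for P214L and 5.26, 3.07 and 4.91 for I209S P214L. H4c4 measured 3.78, 2.86 and 2.83 CPM in ZsGreen and 1.46, 3.72 and 2.55 in P214L, and 2.50, 1.94 and 2.18 in ETV6 WT and 2.04, 5.65 and 3.62 in I209S P214L. H4c18 had 1.35, 2.20 and 2.10 CPM in the 3 ZsGreen libraries, 1.77, 2.11 and 3.78 in ETV6 WT, 1.66, 2.13 and 1.18 in P214L and 1.45, 3.63 and 4.36 in I209S P214L. None of H4c12, H4c4 and H4c18 was called in any comparison, and ZsGreen overlapped I209S P214L in each. The level of H4c11 was 2.88, 2.73 and 2.29 CPM in ZsGreen, 1.32, 0.945 and 0.458 in P214L, 1.53, 1.31 and 0.479 in ETV6 WT and 1.83, 1.32 and 1.04 in I209S P214L. H4c11 was highest in ZsGreen, without overlap with any other group, but not called by edgeR (log2 -1.53 with P214L, adjusted p = 0.127; log2 -1.25 with ETV6 WT, adjusted p = 0.0758). With ETV6 WT it was called lower by DESeq2 (adjusted p = 0.0360) and limma-voom (0.0275). 2 sparse H4 genes were called higher with ETV6 WT with overlapping libraries: H4c14 (adjusted p = 0.0465) and H4c17 (adjusted p = 0.0488), the latter with no count in 2 ZsGreen libraries. The H4c14 call was lost in 8 of the 12 fits that each left out 1 library (adjusted p of 0.0598 to 0.176, the highest without ETV6 WT library 3), and the H4c17 call in 10 (0.0610 to 0.256, the highest without ETV6 WT library 1). H4c1 was called higher in I209S P214L than in P214L (log2 2.86, adjusted p = 0.00798), with 2 to 5 counts in the P214L libraries and 14 to 40 in those of I209S P214L, and the call was lost without I209S P214L library 2 (0.0598).

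Of the H2A genes, H2ac6 had the most counts. In ZsGreen H2ac6 stood at 6.32, 4.33 and 5.47 CPM, in ETV6 WT at 5.01, 6.33 and 11.3, in P214L at 4.02, 5.199 and 3.60 and in I209S P214L at 8.49, 8.995 and 9.39. I209S P214L lay above ZsGreen and P214L, while the ETV6 WT libraries spread widely, with library 3 the highest. H2ac6 was 2.09-fold higher in I209S P214L than in P214L (log2 1.06, SE 0.28, adjusted p = 0.00611 by edgeR). The lower call in P214L against ETV6 WT was lost without ETV6 WT library 3 (adjusted p = 0.316) or P214L library 1 (0.107) or 3 (0.133). Against ZsGreen the double mutant was 1.66-fold higher (adjusted p = 0.0385), a call lost when ZsGreen library 2 (0.134) or 3 (0.0760), P214L library 1 (0.0506) or any library of I209S P214L (0.0542 to 0.0989) was left out. H2ac12 was called higher with the double mutant. For H2ac12 the CPM values were 0, 0.466 and 0.722 for ZsGreen, 1.40, 1.08 and 1.86 for ETV6 WT, 1.39, 1.36 and 1.31 for P214L and 1.56, 3.14 and 1.04 for I209S P214L. ZsGreen library 1 had no count, and the ZsGreen libraries lay below all others. The call had an adjusted p of 0.0252, and 0.127 without I209S P214L library 2.

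H2ac15 and H2ac20 were the H2A genes called lower with ETV6 WT. H2ac15 measured 3.50, 2.20 and 3.49 CPM in ZsGreen and 3.33, 1.77 and 1.31 in P214L, and 0.122, 1.03 and 0.798 in ETV6 WT and 0.161, 0.837 and 1.41 in I209S P214L. ZsGreen lay above ETV6 WT and I209S P214L without overlap, and the lowest libraries were ETV6 WT 1 with 2 counts and I209S P214L 1 with 3. H2ac15 was 4.65-fold lower in ETV6 WT than in ZsGreen (log2 -2.22, SE 0.70, adjusted p = 0.0173 by edgeR). Without ETV6 WT library 1 the call was lost (adjusted p = 0.0589). These 2 libraries also had the lowest 18S share, and the call stayed with that share as a covariate. H2ac15 was also called lower with I209S P214L (log2 -1.94, adjusted p = 0.0315), a call lost without ZsGreen library 1 (0.0630) or 3 (0.0667) or I209S P214L library 1 (0.0997) or 2 (0.0652). H2ac20 had 0.226, 0.933 and 0 CPM in the 3 ZsGreen libraries, 0, 0.0570 and 0 in ETV6 WT, 0.624, 0.886 and 0.719 in P214L and 0.161, 0.0697 and 0.368 in I209S P214L. H2ac20 was called lower with ETV6 WT (adjusted p = 0.0456) on 18 counts in ZsGreen and 1 in ETV6 WT, a call lost in 10 of the 12 fits without 1 library (0.0506 to 0.320, the highest without ZsGreen library 2). Its higher call in P214L against ETV6 WT was lost without ETV6 WT library 1 (0.0667) or 3 (0.0707). The level of H2ac8 was 3.67, 1.67 and 2.47 CPM in ZsGreen, 2.01, 2.19 and 1.37 in P214L, 1.04, 2.22 and 2.29 in ETV6 WT and 0.913, 3.14 and 3.31 in I209S P214L. In ZsGreen H2ac23 stood at 1.58, 3.20 and 2.16 CPM, in ETV6 WT at 1.10, 1.03 and 2.50, in P214L at 2.63, 1.77 and 2.62 and in I209S P214L at 1.07, 3.14 and 2.64. For H2ac4 the CPM values were 0, 1.60 and 1.68 for ZsGreen, 0.183, 0.798 and 0.904 for ETV6 WT, 1.25, 1.30 and 0.654 for P214L and 0.0537, 0.837 and 0.123 for I209S P214L. H2ac8, H2ac23 and H2ac4 were not called in any comparison, and their groups overlapped.

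Tested H3 genes split. H3c15 was higher with ETV6 WT and I209S P214L. H3c15 measured 0.226, 0.799 and 0.541 CPM in ZsGreen and 0.762, 1.95 and 1.11 in P214L, and 4.09, 2.34 and 1.70 in ETV6 WT and 2.04, 2.02 and 2.39 in I209S P214L. ZsGreen was the lowest group, without overlap with either. H3c15 was 5.18-fold higher in ETV6 WT than in ZsGreen (log2 2.37, SE 0.57, adjusted p = 0.00271 by edgeR). Without ZsGreen 1, ETV6 WT 1 and I209S P214L 1 together it was not called with ETV6 WT (0.0600). H3c15 and H3c14 are near-identical copies, and 36.5% of the 50-base stretches of the H3c15 transcript occur in no other annotated transcript, so its reads may be split uncertainly. H3c4 had 5.19, 6.06 and 7.04 CPM in the 3 ZsGreen libraries, 3.97, 6.10 and 7.92 in ETV6 WT, 4.44, 5.26 and 5.03 in P214L and 6.50, 12.6 and 10.9 in I209S P214L. I209S P214L lay above P214L without overlap. H3c4 was 2.02-fold higher in I209S P214L than in P214L (log2 1.02, SE 0.27, adjusted p = 0.00793 by edgeR). Against ZsGreen the H3c4 call with the double mutant (adjusted p = 0.0448) was lost in 8 of the 12 fits without 1 library (0.0567 to 0.212, the highest without I209S P214L library 2). The H3c4 call against P214L was lost without I209S P214L library 2 (0.0502).

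H3c6, H3c10 and H3c11 were called lower with ETV6 WT. The level of H3c6 was 4.91, 9.53 and 8.60 CPM in ZsGreen, 5.41, 8.09 and 3.60 in P214L, 3.54, 4.27 and 4.68 in ETV6 WT and 4.51, 7.53 and 5.83 in I209S P214L. In ZsGreen H3c10 stood at 1.58, 2.33 and 3.61 CPM, in ETV6 WT at 0.183, 0.228 and 1.12, in P214L at 1.66, 1.77 and 0.981 and in I209S P214L at 0.644, 1.46 and 0.921. For H3c11 the CPM values were 5.70, 5.80 and 6.49 for ZsGreen, 1.83, 1.37 and 4.52 for ETV6 WT, 3.40, 3.19 and 1.504 for P214L and 1.99, 5.30 and 2.95 for I209S P214L. In all 3 the ZsGreen and ETV6 WT libraries did not overlap. The log2 fold changes were -0.88 for H3c6 (SE 0.31, adjusted p = 0.0333), -2.26 for H3c10 (SE 0.67, adjusted p = 0.0121) and -1.21 for H3c11 (SE 0.44, adjusted p = 0.0379). None of the 3 was called with the double mutant, where the log2 fold changes were -0.37, -1.32 and -0.82, and the difference from ETV6 WT was not called for any of them (adjusted p = 1 for each). Without ETV6 WT library 1 none of the 5 lower calls with ETV6 WT held (H3c6 0.101, H3c10 0.0509, H3c11 0.119), while 9 members were called higher. H3c10 also lost its call without ETV6 WT library 2 (0.0584), H3c6 without that library (0.0751) or ZsGreen library 2 (0.128) or 3 (0.0888), and H3c11 without that library (0.157) or any ZsGreen library (0.0548 to 0.0787). With the 18S share as a covariate the adjusted p was 0.0720 for H3c6 and 0.0625 for H3c11. H3c10 and H3c11 transcripts have unique 50-base stretches over only 6.08% and 12.4% of their length, and reads shared with copies may have been split or dropped. H3c8 measured 1.69, 1.40 and 3.13 CPM in ZsGreen and 2.49, 1.83 and 2.55 in P214L, and 3.17, 1.88 and 2.13 in ETV6 WT and 2.58, 6.69 and 2.46 in I209S P214L. H3c8 was not called in any comparison.

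**Figure D3:**
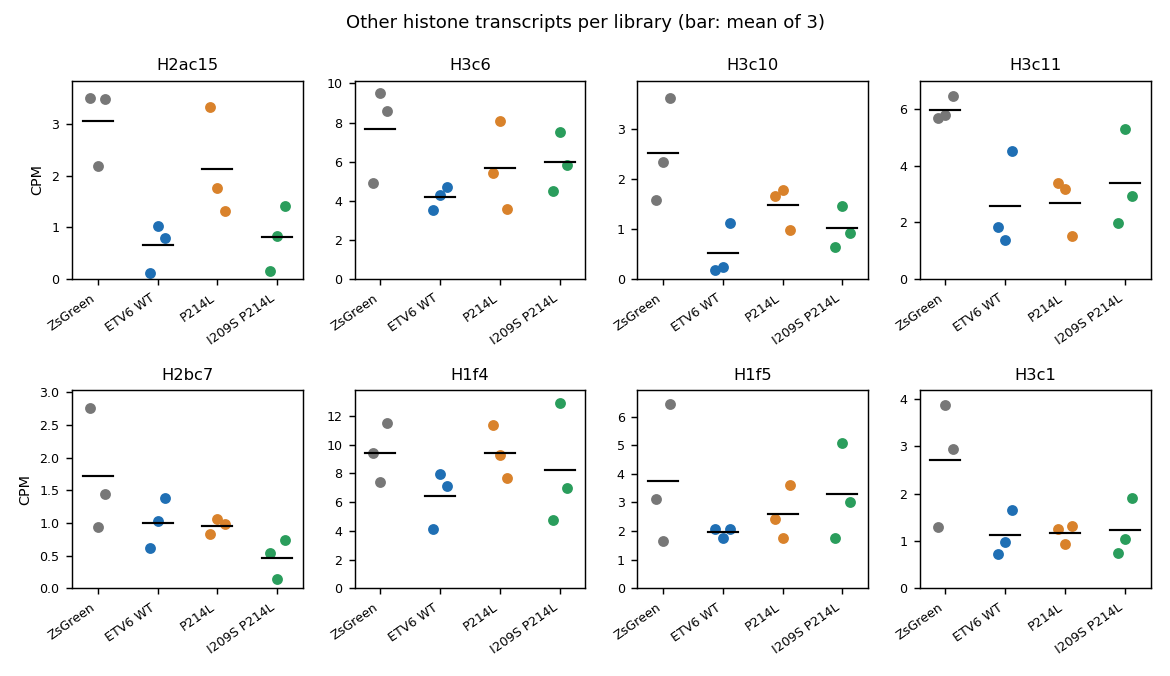
CPM (vertical axis, from 0, separate scale in each panel) in each library for 8 other histone genes, by group, with a bar at the mean of 3. ZsGreen libraries lie above all ETV6 WT libraries for H2ac15, H3c6, H3c10 and H3c11, while H2bc7, H1f4, H1f5 and H3c1 overlap between these groups.

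In the main fit, the members called higher with ETV6 WT included no transcript that ended at the stop codon. H2ac12, which is of that class, was called higher in other fits. These were DESeq2 (adjusted p = 0.0175), limma-voom (0.036), and edgeR with no low-count filter (0.0387), the 18S covariate (0.038) or ZsGreen library 3 left out (0.0289). The numbers by class below are those of the main fit. Over all genes tested 19.5% were called higher and 18.2% lower, and the classes are too small to read a share closely. Of the tested members, 6 had a longer 3′ UTR without stem-loop letters and 3 of them were called higher (H1f0, H2bc4 and H2bc21) and none lower. Of 18 whose transcript ran over 100 bases past the stem-loop, 5 were higher (H1f2, H2bc6, H3c15, H4c9 and H4c14) and 1 lower (H3c6). Of 13 that ended within 100 bases after the stem-loop, 1 was higher (H4c17) and 1 lower (H2ac20). Of 10 that ended at the stop codon, none was higher and 3 were lower (H2ac15, H3c10 and H3c11).

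The same classes with the double mutant gave 4 of 6, 8 of 18, 0 of 13 and 1 of 10 members called higher than ZsGreen, and 0, 0, 1 and 1 called lower. In I209S P214L against P214L, which shares no library with ETV6 WT against ZsGreen, they gave 4 of 6, 8 of 18, 0 of 13 and 0 of 10 called higher and none lower. Over all genes these shares were 20.8% higher and 20.7% lower in the first of these comparisons and 15.9% and 17.1% in the second. The median log2 fold change with ETV6 WT against ZsGreen was 0.66, -0.02, 0.20 and -1.22 in the 4 classes. The classes also differ in level: in ZsGreen they summed to 532, 264, 18.2 and 22.5 CPM, so the first 2 hold most of the counts. What part the level plays in the number of calls was not tested. Members also differ in the share of 50-base stretches found in no other gene. This share was 100% for H1f0 and H2bc21, but 6.08% for H3c10, 12.4% for H3c11 and 47.7% for H2ac15. Going the other way were H2bc23 (longer 3′ UTR, 0%) and H1f5 (ended at the stop codon, 100%). What part this share plays in the medians was not tested.

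**Figure D4:**
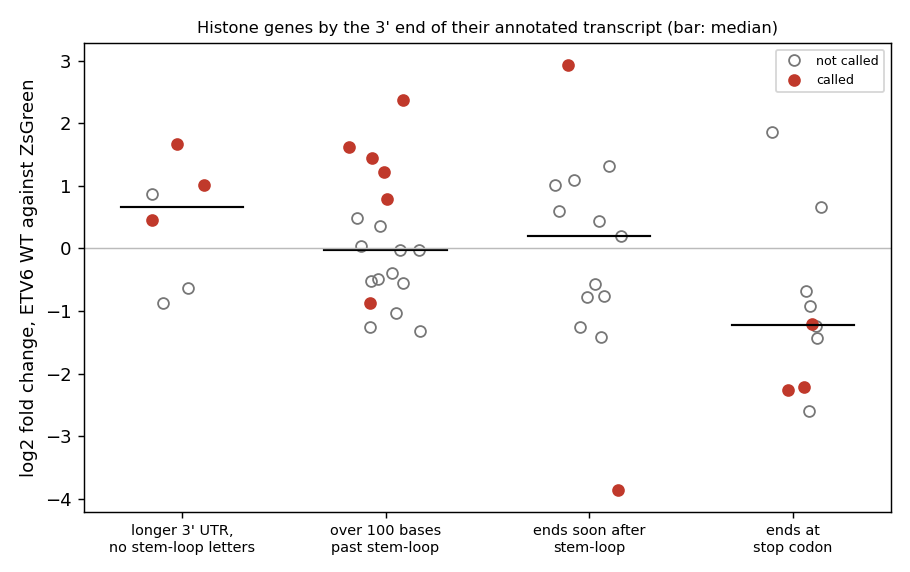
Log2 fold change of ETV6 WT against ZsGreen (vertical axis) for the 47 tested histone genes, grouped by the 3′ end of the annotated transcript; filled points were called at an adjusted p under 0.05 and bars are medians. The medians run from 0.66 for longer 3′ UTRs without stem-loop letters to -1.22 for transcripts that end at the stop codon.

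ETV6 WT against ZsGreen and I209S P214L against P214L are 2 comparisons without a shared library, which can be set side by side. Over the 47 tested members Pearson's r between their log2 fold changes was 0.64 and Spearman's rho 0.66, as a description across genes of the same 12 libraries' fit, and 32 members had the same sign. For the 12 members of at least 5 CPM r was 0.91 and rho 0.90, with the same sign in 10. H1f0, H1f2, H2bc4, H2bc6, H2bc21 and H4c9 were called higher in both. The same figures over all genes tested are not given here, so none of them is read as particular to histone genes.

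**Figure D5:**
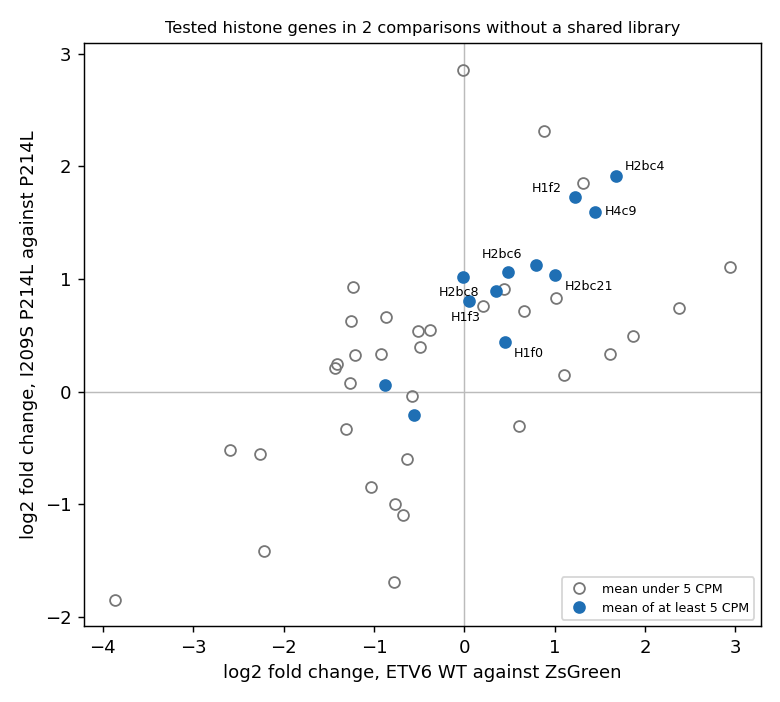
Log2 fold change of ETV6 WT against ZsGreen (horizontal axis) and of I209S P214L against P214L (vertical axis) for each tested histone gene; filled points average at least 5 CPM. The filled points follow one rising line (r = 0.91, 12 genes), while the open points scatter.

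The promoters of the 6 members just named, called higher in both comparisons, are shown next for the 4 that the table holds, as the 250 bases before the annotated start. RefSeq's promoter table (GRCm38.p6) matched 62 of the 69 members, and H2bc4 and H2bc21 were not among them. Capitals mark CCAAT, the TATA box letters TATAAA, ATTTGCAT (the octamer of H2B promoters), AAACACA (the H1 box) and CGGAAG (the core of ETS factor sites, and part of the longer CCGGAAGT), each searched on both strands. CGGAAG is the only one of these that lies inside another.
H1f2, chr13:23738557-23738806, plus strand: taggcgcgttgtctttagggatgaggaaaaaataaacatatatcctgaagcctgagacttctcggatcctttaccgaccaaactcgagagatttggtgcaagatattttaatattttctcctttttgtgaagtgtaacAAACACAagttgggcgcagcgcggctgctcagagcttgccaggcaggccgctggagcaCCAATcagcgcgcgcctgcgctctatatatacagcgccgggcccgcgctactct
H2bc6, chr13:23585971-23586220, minus strand: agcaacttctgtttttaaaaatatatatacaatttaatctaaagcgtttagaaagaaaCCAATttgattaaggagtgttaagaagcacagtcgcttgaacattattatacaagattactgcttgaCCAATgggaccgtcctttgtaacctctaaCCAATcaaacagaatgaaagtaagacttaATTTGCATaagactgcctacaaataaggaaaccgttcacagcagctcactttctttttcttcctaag
H4c9, chr13:22041363-22041612, minus strand: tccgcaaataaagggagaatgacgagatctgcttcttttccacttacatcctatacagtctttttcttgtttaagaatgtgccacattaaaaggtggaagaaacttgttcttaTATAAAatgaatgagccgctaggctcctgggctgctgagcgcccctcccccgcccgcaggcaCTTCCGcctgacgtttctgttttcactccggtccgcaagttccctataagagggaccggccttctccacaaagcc
H1f0, chr15:79027962-79028211, plus strand: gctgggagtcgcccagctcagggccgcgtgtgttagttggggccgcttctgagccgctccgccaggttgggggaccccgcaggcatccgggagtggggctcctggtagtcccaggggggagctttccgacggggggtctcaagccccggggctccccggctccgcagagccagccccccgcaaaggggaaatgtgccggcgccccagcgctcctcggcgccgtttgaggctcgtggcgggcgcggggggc
The H1f2 window holds CCAAT and AAACACA, that of H2bc6 CCAAT and ATTTGCAT, that of H4c9 TATAAA and CGGAAG, and that of H1f0 none of these letters.

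Across the 62 members CCAAT was found in 79.0% of windows, against 33.8% of 32817 windows of the same length in the table. TATAAA was found in 45.2% against 12.4%. ATTTGCAT was found in 13 of the 62 windows against 1.60% of all, in 7 of 14 H2B and 6 of 17 H2A windows. Windows of neighbouring H2A and H2B genes can overlap, as with H2ac1 and H2bc1, H2ac8 and H2bc8, and H2ac12 and H2bc12. In these pairs the same ATTTGCAT is counted for both genes, so the windows are not all separate sites. AAACACA was found in 5 of 10 H1 windows, against 6.25% of all windows. CGGAAG was found in 6 of the 62 windows, or 9.68%, against 13.6% of all, and CCGGAAGT in none, against 2.88%. A match or its absence describes these letters in this window and says nothing of binding.

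Genes of histone supply and DNA replication were taken from lists, and their counts are to be read against the shares of all genes given above: 19.5% higher and 18.2% lower with ETV6 WT, 20.8% and 20.7% with I209S P214L, and 3.47% and 1.61% with P214L. Most S phase, mitotic and chaperone genes were called lower with ETV6 WT and I209S P214L, while most replacement variants and poly-A genes were not. Among replacement variants, which are made outside S phase or for special sites, 9 were tested: with ETV6 WT 1 was called higher than ZsGreen and 3 lower, and with I209S P214L 2 and 4. H3f3a, one of the 2 genes for the replacement histone H3.3, averaged 616 ± 16.0 CPM in ZsGreen, 606 ± 14.4 in P214L, 787 ± 41.7 in ETV6 WT and 729 ± 23.1 in I209S P214L. H3f3a rose with ETV6 WT (log2 0.35, adjusted p = 8.79e-05) and I209S P214L (log2 0.24, adjusted p = 0.00238). The other H3.3 gene, H3f3b, had log2 fold changes of 0.06 (adjusted p = 0.491) and 0.17 (adjusted p = 0.0286). H2ax, the variant phosphorylated at DNA breaks, fell by 0.46 and 0.56 on the log2 scale, H2az1, a variant at promoters, by 0.28 and 0.35, and Cenpa, the centromere H3, by 0.63 and 0.72, all called in both.

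Of 17 tested genes for histone mRNA processing, 8 were called lower with ETV6 WT and 10 with I209S P214L, 1 with P214L, and none higher. Slbp, whose protein binds the stem-loop shown above, averaged 139 ± 3.24 CPM in ZsGreen, 128 ± 3.91 in P214L, 90.3 ± 2.49 in ETV6 WT and 90.4 ± 2.04 in I209S P214L. It fell by 0.62 on the log2 scale with ETV6 WT (SE 0.06, adjusted p = 3.74e-07). Cpsf3, the endonuclease that cuts histone and other pre-mRNAs, fell by 0.70 with ETV6 WT (adjusted p = 7.95e-08), Casp8ap2 (FLASH, a histone processing factor) by 0.57 (adjusted p = 0.000308) and Cstf2 by 0.45 (adjusted p = 0.000205). Npat, the coactivator of histone gene transcription, was not called (log2 -0.04, adjusted p = 0.743). Of 14 genes for poly-A addition and tail binding, 2 were called higher and 4 lower with ETV6 WT.

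Of 22 histone chaperone genes, 13 were called lower and 3 higher with ETV6 WT, and 16 and 3 with I209S P214L. Nasp, a chaperone of H1 and of the H3 and H4 supply, fell by 1.14 and 1.16 on the log2 scale, Hat1, which acetylates new H4, by 0.78 in both, and Chaf1a, which deposits new H3 and H4 behind the fork, by 0.70 and 0.78. Of 25 S phase genes 24 were called lower with ETV6 WT (all but Rrm2) and 23 with I209S P214L, with medians of -0.65 and -0.75, and 5 with P214L, with a median of -0.22. Of 20 mitotic genes 19 were lower with each of the first 2 (all but Kif23) and 7 with P214L. Mki67, which marks dividing cells, fell by 0.76 with ETV6 WT, 0.84 with I209S P214L and 0.31 with P214L. Of 16 regulators of entry into S phase, 9 were lower and 3 higher with ETV6 WT. The CDK inhibitor gene Cdkn1b rose (log2 0.68, adjusted p = 2.65e-06), as did Rb1 (log2 0.59, adjusted p = 1.46e-06), and Cdc25a fell by 0.91 (adjusted p = 6.93e-06). The summed S phase genes lay at 4330 to 4402 CPM in ZsGreen, 3692 to 3816 in P214L, 2714 to 3060 in ETV6 WT and 2639 to 2811 in I209S P214L, so the groups with the most captured histone transcripts had the least of these; what part either plays in the other was not tested.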

How the data were processed

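Poly-A selected RNA from 12 Ba/F3 libraries was measured, in 4 groups of 3. The authors deposited raw counts per gene, made with HISAT2 2.0.5 and featureCounts 1.5.0-p3 on mm39, per the submitters' processing notes. Their deposited FPKM and gene length were used for levels per length. Annotation release and the handling of strand and multi-mapped reads are not given in the sources used here. Libraries held 14301683 to 18607595 counts, so members under about 1 CPM rest on few counts.

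From the counts, genes were filtered with filterByExpr (min.count 10), scaled by TMM and fitted over all 12 libraries with edgeR 4.0.16 quasi-likelihood in R 4.3.3. The 6 pairwise comparisons were adjusted by Benjamini-Hochberg over 14794 genes, at 0.05. CPM values use TMM-scaled library sizes. The fit was tested on simulated counts. Alternatives were DESeq2 1.42.0, limma 3.58.1 (voom), other scaling, no filter, 2 groups alone, the replicate number as a block, the 18S level as a covariate (table row Rn18s-rs5) and each library left out.

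Members and gene lists were chosen with earlier results of these data known. Values in every library are given for all tested linker genes, the 4 most abundant tested members of each core family and the 2 with the smallest adjusted p in each direction of each comparison. From each other list, up to 4 genes with the smallest adjusted p with ETV6 WT were named, with Slbp, Npat, H2az1, H3f3a, H3f3b and H2ax. Other genes named were chosen after their values were seen, and some genes of the lists are not reported here by name. Promoters are RefSeq's on GRCm38.p6, and no coordinate was converted between builds.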

Additional observations from a re-analysis of the deposited data

How the results depend on the processing

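Of the calls, 5 of 14 (ETV6 WT against ZsGreen), 8 of 15 (I209S P214L against ZsGreen), 5 of 10 (P214L against ETV6 WT) and 9 of 12 (I209S P214L against P214L) held in all 21 alternative fits, and no call changed direction in any of them. Leaving out 1 library gave 8 to 15 members called with ETV6 WT against ZsGreen (14 with all; 9 without ETV6 WT library 1, 8 without library 2), 0 to 1 with P214L against ZsGreen (1, H2ac7, without ZsGreen library 3), 11 to 16 with I209S P214L against ZsGreen, 6 to 11 for P214L against ETV6 WT (10 with all; 6 without P214L library 1), 0 for I209S P214L against ETV6 WT and 10 to 13 for I209S P214L against P214L. P214L against ZsGreen had 1 call with DESeq2 (H4c11), with the 18S covariate and with only those 2 groups fitted (H3c11 in both), and I209S P214L against ETV6 WT had 1 (H1f2) with DESeq2 and with no low-count filter. The cause was not tested. Without H1f0 and H1f10 the summed level was 337 CPM in ZsGreen, 605 in ETV6 WT, 314 in P214L and 800.2 in I209S P214L, since H1f0 holds much of the counts. Without ZsGreen 1, ETV6 WT 1 and I209S P214L 1 together, chosen after seeing the data, 9 members were higher and 4 lower with ETV6 WT. Scaling alternatives moved the median of all genes by under 0.1 on the log2 scale. With the 18S covariate the member medians were 0.11 (ETV6 WT, -0.38 without it), -0.38 (P214L) and 0.53 (I209S P214L) against ZsGreen, -0.36 for P214L and 0.37 for I209S P214L against ETV6 WT, and 0.76 for I209S P214L against P214L. Same-numbered libraries of different groups correlated over 0.1 in 2 of 18 pairs (r of -0.061 to 0.53, and -0.39 to 0.16 between other numbers). Of the 12 libraries, 8 correlated best with their own number. The main fit did not use the numbers to pair the samples, and whether they mark a shared batch was not tested. With the replicate block 14, 0, 16, 10, 0 and 12 members were called in the 6 comparisons, in the order above, and with ETV6 WT against ZsGreen H2bc8 (adjusted p = 0.0194) and H4c11 (0.0413) were then called by edgeR. Depth limits members under about 1 CPM, and the poly-A selection leaves untailed histone mRNA unmeasured.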
